A study of Mus musculus with 6 samples.

Results

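The genes that copy the genome and supply its building blocks were followed in embryonic mouse salivary glands treated with blebbistatin and in control glands. The set holds 45 genes of origin licensing, the replicative helicase, the polymerases, the sliding clamp and nucleotide supply, taken by symbol from a table of 24067 genes, and all 45 were found. In all, 6 RNA-seq libraries came from submandibular glands of ICR embryos at embryonic day 13 (E13), and were made with an Illumina TruSeq kit from total RNA. Blebbistatin, a small molecule that stops non-muscle myosin II from working as a motor, had been applied to the glands of 3 libraries, and the other 3 were controls. Both groups share strain, tissue label and age. The sources used here do not give dose, duration, vehicle or how many glands a library holds. The series title speaks of epithelial buds where the tissue label speaks of the gland.

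Values are the authors' FPKM, fragments per kilobase of transcript, scaled to the library's mapped total. Depth was not given as such. The step size of low values in long transcripts placed it between about 28200000 and 34200000 fragments per library, with control 2 the deepest, and the gene with the fewest fragments, Gins3, then rested on about 290 or more in each library. All 9 epithelial markers averaged at least 1 FPKM, as did 4 of 8 mesenchymal markers. Levels were far apart, with a median marker mean of 166 FPKM in the epithelial list and 1.05 FPKM in the mesenchymal list. Of those 4 mesenchymal markers, Vim averaged 350 FPKM with blebbistatin and 305 FPKM in controls. Col1a1, Col1a2 and Col3a1 averaged at most 3.15 FPKM in either group. No endothelial, neuronal, Schwann cell, leukocyte or skeletal muscle marker reached that level. Summed red blood cell markers came to 1.03, 6.71 and 61.1 FPKM in blebbistatin libraries 1 to 3 and to 194, 1.84 and 193 FPKM in controls 1 to 3, at most 0.0379% of a library's FPKM total. Of the 5 markers 4 averaged at least 1 FPKM. The labels do not say whether the 3 libraries of a group are separate cultures or litters, so each p-value measures library-to-library spread only, and that spread may be technical.

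Replication begins with licensing, when the origin recognition complex, Cdc6 and Cdt1 load the ring of Mcm2 to Mcm7 onto DNA, and geminin (Gmnn) holds Cdt1 in check. Kinases then turn the loaded ring into a working helicase by adding Cdc45 and the GINS complex, polymerases extend primers behind it, and ribonucleotide reductase, thymidylate synthase and thymidine kinase feed the fork. Transcripts of many of these genes are made around the G1/S transition under E2F transcription factors, so they are commonly used as a readout of proliferation, and bud growth of the early salivary gland goes with rapid epithelial division. In bulk RNA, a change in the number of cycling cells and a change in these transcripts per cell cannot be told apart.

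Nearly the whole replication set stood slightly higher in blebbistatin glands, and no gene of it passed the test. Of the 45 genes, 44 had a higher mean with blebbistatin (97.8%), where 55.2% of the 11540 genes tested did, and Mcm6 turned lower under both median-of-ratios rescaling and removal of the length trend. Without single libraries the count lay between 41 and 45. The median log2 fold change of the set was 0.20, beside 0.01 for all genes tested, whose 10th and 90th percentiles were -0.19 and 0.18. Mcm10 had the largest difference, with a mean 42.1% higher than in controls. Differences, here and throughout, are blebbistatin minus control on the log2(FPKM + 1) scale, fitted with limma over all genes with a mean of at least 1 FPKM.

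None of the 45 genes passed a Benjamini-Hochberg adjusted p of 0.05 in limma, a threshold that 0.078% of all genes tested passed, in all 9 genes. Adjusted p was smallest for Mcm10 at 0.144, and lay under 0.2 for 3 genes in all, the others being Gmnn and Cdc45. At an unadjusted p under 0.05, 16 genes were higher (35.6%), against a background of 4.46%, and 0 were lower, against a background of 4.9%. In 22 genes (48.9%) all blebbistatin libraries lay above all controls, against a background of 7.48%, and in 0 genes all lay below, against a background of 6.8%. The count of 16 depended on single libraries. It was 7 without control 3, where 3.55% of all genes tested were higher at that p. It was 7 without blebbistatin 1 (3.36% of all genes), 7 without blebbistatin 2 (3.10%) and 9 without blebbistatin 3 (4.10%). The count was 12 without control 1 (6.05%) and stayed at 16 without control 2 (5.11%). With replicate number as a block, which the labels do not state to be a pairing, it was 21, beside 8.02% of all genes, and 0 of the 45 passed the adjusted threshold. These genes share the cell cycle as their setting and are not independent of each other. They were also chosen with earlier results of these data known, so their shares were not tested against the background.

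**Figure D1:**
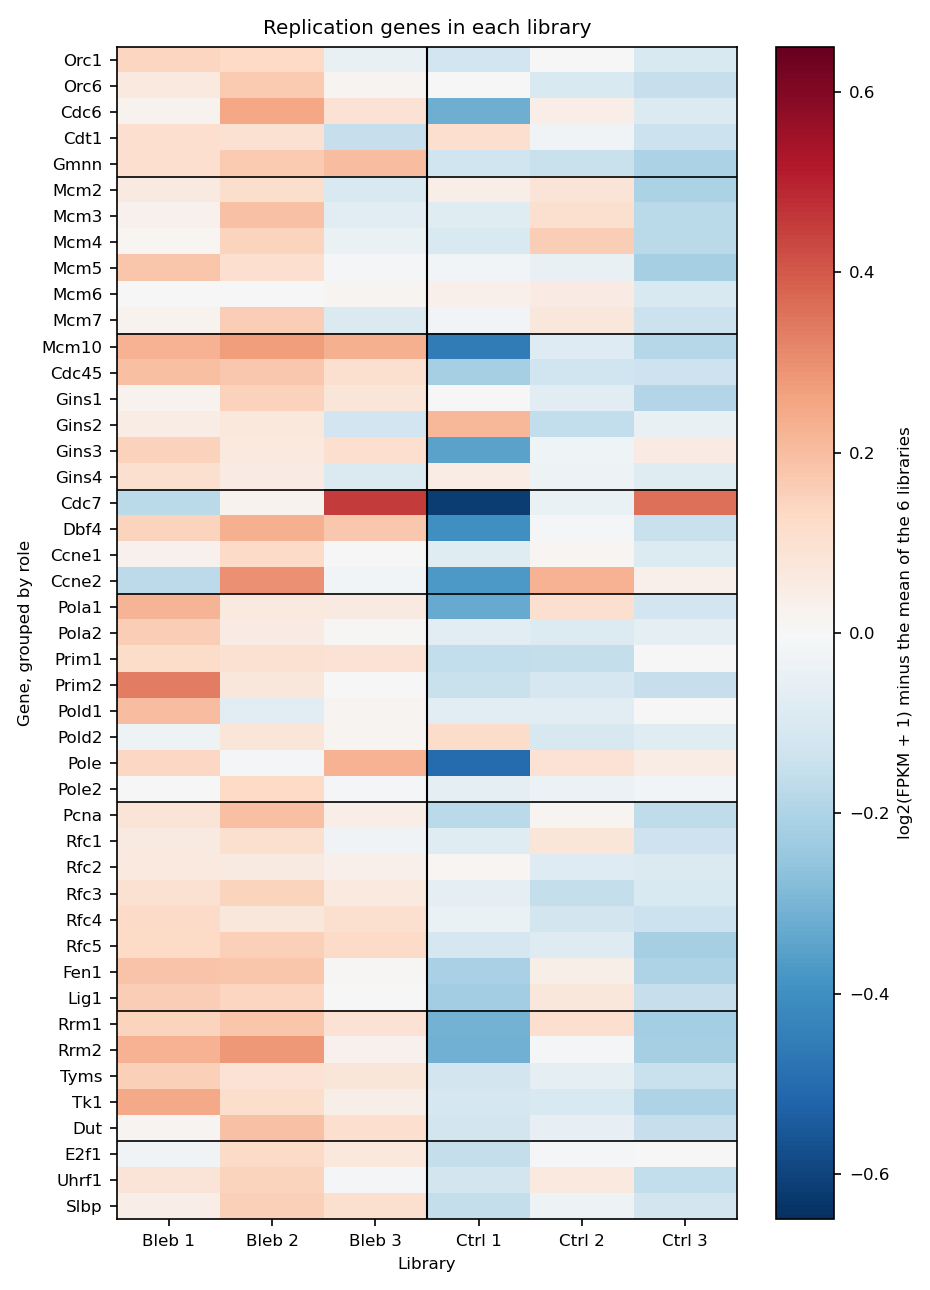
Each cell shows 1 gene in 1 library as log2(FPKM + 1) minus that gene's mean over all 6, with the 3 blebbistatin libraries on the left, the 3 controls on the right and genes grouped by role. Red (higher) cells fill most of the blebbistatin side and blue (lower) cells most of controls 1 and 3, while control 2 is mixed.

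The libraries were not equally far apart. Averaged over the 45 genes, the deviation from the mean of all 6 libraries on the log2 scale was 0.09, 0.13 and 0.04 in blebbistatin libraries 1 to 3 and -0.14, -0.02 and -0.11 in controls 1 to 3. Every blebbistatin library thus lay above every control in this average, and control 2 lay closest to the treated libraries. Control 1 was the lowest of all 6 libraries for 20 of the 45 genes and control 3 for 19, while blebbistatin 2 was the highest for 21 and blebbistatin 1 for 17. Over all genes tested, control 1 was the lowest library for 22.9% and control 3 for 26.4%, and blebbistatin 2 was the highest for 17.5% and blebbistatin 1 for 18.6%. The pair of controls with low replication scores also had the most red blood cell transcripts, at 194 and 193 FPKM, and control 2 had 1.84 FPKM. Blebbistatin 3, with a score of 0.04, had 61.1 FPKM, and blebbistatin 1 and 2 had 1.03 and 6.71 FPKM. Other marker values also went with the groups or with control 1. Sox10, a marker of the distal epithelium, had 121, 158 and 152 FPKM in blebbistatin libraries, against 214, 216 and 206 FPKM in controls, and the receptor gene Kit had 5.38, 16.3 and 16.2 FPKM in blebbistatin libraries, against 21.5, 36.4 and 32.6 FPKM in controls. Other epithelial markers did not all go this way. Krt14 averaged 193 FPKM with blebbistatin and 140 FPKM in controls, and Cdh1 averaged 140 and 128 FPKM. Epcam, Krt5, Krt8, Krt18 and Sox9 had lower means with blebbistatin. Summed over their lists, the 9 epithelial markers ranged between 1387 and 1687 FPKM with blebbistatin and between 1528 and 1849 FPKM in controls. The 8 mesenchymal markers summed to between 335 and 374 FPKM with blebbistatin and between 280 and 354 FPKM in controls. Vim made up most of that sum, with means of 350 FPKM with blebbistatin and 305 FPKM in controls. Each of the other mesenchymal markers was far lower in level and had a lower mean with blebbistatin. The collagen gene Col3a1 had 0.806, 1.94 and 2.18 FPKM in blebbistatin libraries, against 7.26, 1.21 and 0.971 FPKM in controls, and Col1a1 and Col1a2 were also highest in control 1. The part of these differences in the replication result was not tested.

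**Figure D2:**
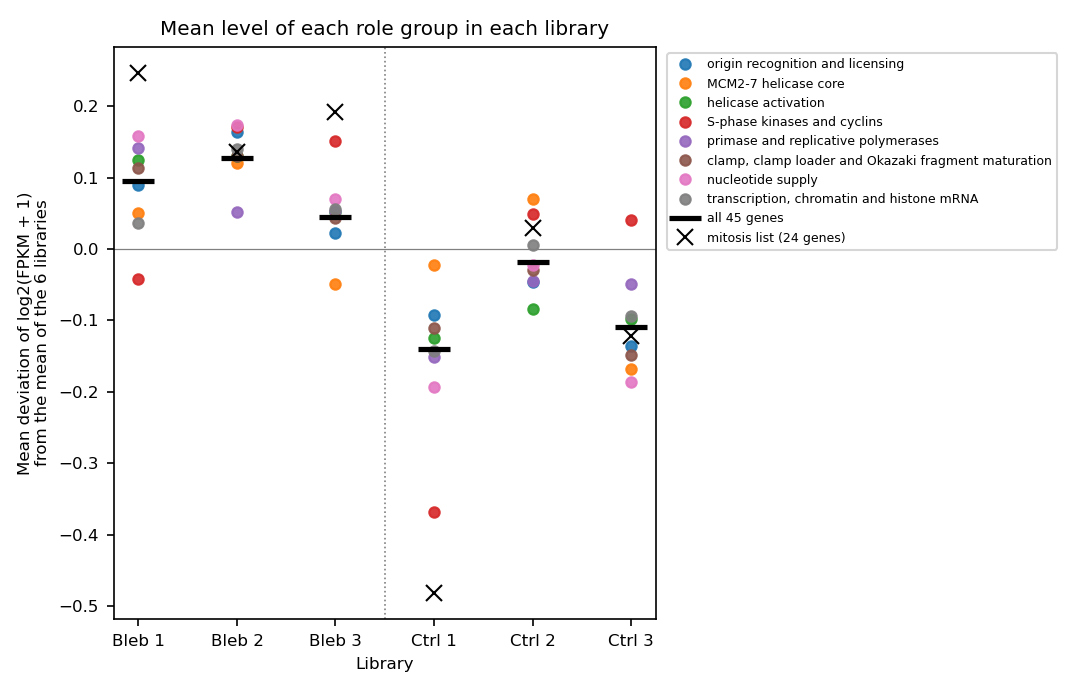
Mean log2(FPKM + 1) of each library, less the average of all 6, for each role group (coloured points), for all 45 genes (black bar) and for 24 mitosis genes (crosses). The black bar lies above 0 in the 3 blebbistatin libraries and below 0 in the 3 controls, by as little as -0.02 in control 2.

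Promoter sequence was set beside these values because the letters bound by E2F factors mark many replication genes. The RefSeq promoter table (GRCm38.p6) held 36 of the 45 genes with 43 promoters, each 300 bases long from 250 before to 50 after the start. Of these starts, 35 coincided with a start in the deposited annotation and 39 lay within 100 bases of one. The letters TTTCGCGC or TTTGGCGC, searched on both strands, stood in the promoters of 11 of the 36 genes (30.6%), against 1.99% of tested genes with a promoter and 0.929% of all genes in the table. The CCAAT box, searched as CCAAT, stood in 20 (55.6%), against 43.6% of tested genes. The cell cycle genes homology region, searched as TTTGAA, stood in 7 (19.4%), against 14.0%. E2F matches on opposite strands can overlap, as they do in Mcm5 and Mcm6. A match is a description of the letters, not of a bound site.

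The promoters of Rfc3, Mcm5, Pola1 and Orc1 are shown because they hold the E2F letters before the start and had the smallest p among such genes. The promoters of Mcm6 and Mcm10 were added after the values were seen, Mcm6 for the most E2F matches and Mcm10 for the largest difference of the set. Each line gives the 200 bases before the start, 5′ to 3′ on the gene's strand, with E2F letters in capitals, or CCAAT in capitals for Mcm10, which held no E2F letters in its window. On GRCm38.p6 they lie at chr5:151651209-151651408 (minus strand), chr8:75109309-75109508 (plus), chrX:93632156-93632355 (minus), chr4:108579254-108579453 (plus), chr1:128359706-128359905 (minus) and chr2:5012792-5012991 (minus), where the Mcm6 start lies 49 bases from the deposited one.
Rfc3: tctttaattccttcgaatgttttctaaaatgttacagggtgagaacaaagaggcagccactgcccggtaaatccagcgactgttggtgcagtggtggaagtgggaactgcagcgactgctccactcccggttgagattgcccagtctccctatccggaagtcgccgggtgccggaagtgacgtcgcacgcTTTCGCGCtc
Mcm5: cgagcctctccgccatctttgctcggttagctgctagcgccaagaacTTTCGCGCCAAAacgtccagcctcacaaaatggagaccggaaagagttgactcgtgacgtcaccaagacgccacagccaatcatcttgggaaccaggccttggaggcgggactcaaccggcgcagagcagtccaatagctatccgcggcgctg
Pola1: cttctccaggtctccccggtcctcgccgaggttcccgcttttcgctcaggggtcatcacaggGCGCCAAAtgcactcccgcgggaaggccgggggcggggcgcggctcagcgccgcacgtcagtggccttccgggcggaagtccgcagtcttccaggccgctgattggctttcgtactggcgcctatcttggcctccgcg
Orc1: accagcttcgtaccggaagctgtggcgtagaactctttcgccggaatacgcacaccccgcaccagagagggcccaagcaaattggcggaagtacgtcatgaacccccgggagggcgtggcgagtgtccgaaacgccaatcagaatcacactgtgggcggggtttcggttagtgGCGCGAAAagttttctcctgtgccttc
Mcm6: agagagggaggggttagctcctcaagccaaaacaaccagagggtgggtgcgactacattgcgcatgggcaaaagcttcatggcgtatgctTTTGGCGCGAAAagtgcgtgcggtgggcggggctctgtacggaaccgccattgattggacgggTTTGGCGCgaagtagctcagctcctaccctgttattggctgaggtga
Mcm10: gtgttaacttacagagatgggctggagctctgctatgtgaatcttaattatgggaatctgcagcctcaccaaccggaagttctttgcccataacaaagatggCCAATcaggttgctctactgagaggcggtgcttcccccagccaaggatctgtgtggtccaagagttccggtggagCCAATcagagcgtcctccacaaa

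The median difference was not larger where the E2F letters were present. The median log2 fold change was 0.15 over the 11 genes with the letters, of which 1 had an unadjusted p under 0.05. It was 0.21 over the 25 genes without them, of which 13 did, where 4.46% of all genes tested were higher at that p. Mcm6, with 3 matches of which a pair overlap, differed by 0.01 ± 0.09 (SE), and Mcm10, with none, by 0.49 ± 0.11. Both were picked after the values were seen, so their contrast does not speak for the set. The genes with the letters include Mcm3, Mcm5, Mcm6, Mcm7 and Cdt1 and no gene of nucleotide supply. The letters and the role of a gene can therefore not be told apart in this split. Only the exact letters were searched, so a gene counted as without them may hold an E2F site in another form. No difference between the genes with and without the letters was tested, since the genes are not independent replicates. Ccne2, Gins1, Gins2, Gins4, Gmnn, Mcm4, Pole, Prim2 and Rfc2 have no entry in the promoter table.

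Among licensing genes, geminin differed most and the factor it inhibits least. The 5 genes had a median log2 fold change of 0.17, and all 5 had a higher mean with blebbistatin, as did 55.2% of all genes tested. Gmnn (chr13:24751845-24761937, mm10) had 41.8, 43.6 and 44.6 FPKM in blebbistatin libraries, against 35.2, 34.9 and 33.4 FPKM in controls. All treated libraries lay above all controls, and the log2 fold change was 0.32 ± 0.08 (SE, n = 3 each, limma adjusted p = 0.185). Cdt1, the loading factor that geminin binds, had 46.0, 45.7 and 38.3 FPKM in blebbistatin libraries, against 46.0, 42.0 and 38.6 FPKM in controls. The Cdt1 groups overlapped, the log2 fold change was 0.04 ± 0.11, and it was below 0 without control 3, without blebbistatin 1 and without blebbistatin 2. The ratio of Gmnn to Cdt1 was 0.908, 0.955 and 1.16 in blebbistatin libraries and 0.765, 0.830 and 0.865 in controls, a ratio chosen after the values were seen. Every treated ratio lay above every control ratio. A two-sided exact permutation test gave p = 0.1 (adjusted over 6 ratios, 0.2), which is the smallest p that 3 against 3 libraries can give.

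The rest of the licensing group differed by less. Cdc6, the ATPase that works with Cdt1 in loading, had 6.16, 7.38 and 6.52 FPKM in blebbistatin libraries, against 4.65, 6.25 and 5.62 FPKM in controls. Only blebbistatin 1 lay inside the control range, and the log2 fold change was 0.24 ± 0.12 (limma adjusted p = 0.603). Orc6, a small subunit of the origin recognition complex, had 23.8, 25.8 and 23.0 FPKM in blebbistatin libraries, against 22.8, 21.2 and 20.4 FPKM in controls. Its groups did not overlap, at a log2 fold change of 0.17 ± 0.09 (limma adjusted p = 0.655). Orc1, the subunit that recruits Cdc6, had the lowest level of the 45 genes, 5.38 ± 0.459 FPKM with blebbistatin and 4.74 ± 0.249 FPKM in controls (SD, n = 3 each), and differed by 0.15 ± 0.09.

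The ring of the helicase itself, the 6 genes Mcm2 to Mcm7, had a median log2 fold change of 0.07. It lay within 0.0048 to 0.14 as each library was left out. Of these genes 0 had an unadjusted p under 0.05, where 4.46% of all genes tested were higher at that p and 4.9% lower. Mcm6 had 92.3, 92.3 and 93.7 FPKM in blebbistatin libraries, against 94.7, 95.9 and 86.3 FPKM in controls, at a log2 fold change of 0.01 ± 0.09 with a 95% interval from -0.19 to 0.21. The groups overlapped, and the sign turned to -0.008119 under median-of-ratios rescaling and to -0.002023 after removal of the trend with transcript length. Mcm5 had 64.5, 61.4 and 56.4 FPKM in blebbistatin libraries, against 56.1, 54.9 and 48.8 FPKM in controls. It was the ring gene whose groups did not overlap, by a narrow margin between blebbistatin 3 and control 1, at 0.19 ± 0.10 (limma adjusted p = 0.646). Mcm3 had 68.6, 77.0 and 64.2 FPKM in blebbistatin libraries, against 63.6, 72.3 and 59.4 FPKM in controls, and Mcm4 had 55.4, 61.0 and 53.4 FPKM in blebbistatin libraries, against 51.3, 61.5 and 48.6 FPKM in controls. In both genes each group reached into the other, at log2 fold changes of 0.10 and 0.08. Mcm2 averaged 56.7 ± 4.41 FPKM with blebbistatin and 54.8 ± 5.87 FPKM in controls. Mcm7 averaged 108 ± 9.74 FPKM with blebbistatin and 103 ± 7.70 FPKM in controls, the highest level of the ring genes.

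Genes that activate the helicase held the largest difference of the set. Mcm10, which is needed to start unwinding at licensed origins, lies at chr2:4990724-5012791 (mm10). It had 19.0, 19.7 and 19.1 FPKM in blebbistatin libraries, against 11.5, 15.1 and 14.0 FPKM in controls. The treated libraries lay close together, above all controls, and control 1 was the lowest. Means were 19.2 ± 0.369 FPKM with blebbistatin and 13.5 ± 1.87 FPKM in controls (SD, n = 3 each), a log2 fold change of 0.49 ± 0.11 (SE), at a limma adjusted p of 0.144. Across the alternatives that adjusted p ran from 0.0624 with the replicate block to 0.344 without blebbistatin 2. Cdc45 (chr16:18780447-18811972), a core part of the moving helicase, had 21.9, 21.7 and 20.6 FPKM in blebbistatin libraries, against 16.2, 17.3 and 17.3 FPKM in controls. Here too the groups were apart, at 0.32 ± 0.08 (limma adjusted p = 0.188).

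Set against the ring they join, both genes were higher in every treated library than in any control. The ratio of Mcm10 to the mean FPKM of Mcm2 to Mcm7 was 0.256, 0.251 and 0.274 with blebbistatin and 0.161, 0.1997 and 0.218 in controls. For Cdc45 the ratio was 0.295, 0.277 and 0.295 with blebbistatin and 0.228, 0.229 and 0.268 in controls. Both gave the smallest two-sided exact permutation p of the design, 0.1 (adjusted over 6 ratios, 0.2), and a ratio within a library does not depend on the library total. These ratios were also chosen after the values were seen.

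The 4 GINS subunits, which bind Cdc45 and the ring as 1 complex, had differences of unlike size. Gins1 had 18.5, 20.3 and 19.3 FPKM in blebbistatin libraries, against 18.2, 17.2 and 15.8 FPKM in controls, with no overlap and a log2 fold change of 0.17 ± 0.09 (limma adjusted p = 0.646). Gins3 had 6.33, 5.91 and 6.13 FPKM in blebbistatin libraries, against 4.20, 5.48 and 5.85 FPKM in controls. The Gins3 groups were also apart, by a narrow margin between blebbistatin 2 and control 3, at 0.22 ± 0.12. Gins2 had 44.4, 45.05 and 39.3 FPKM in blebbistatin libraries, against 50.1, 38.4 and 41.5 FPKM in controls. It was the 1 gene of the 45 with a lower mean in treated glands, at a log2 fold change of -0.01 ± 0.12, with control 1 the highest of all libraries and a value of 0.10 once control 1 was left out. Gins4 averaged 37.0 ± 2.64 FPKM with blebbistatin and 35.9 ± 1.66 FPKM in controls and differed by 0.04 ± 0.09.

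Among the kinases and cyclins that fire origins, Dbf4 differed most relative to its error. The 4 genes had a median log2 fold change of 0.15, which lay between 0.015 without control 1 and 0.26 without blebbistatin 1. Dbf4, the subunit that activates the Cdc7 kinase, had 25.2, 26.8 and 25.7 FPKM in blebbistatin libraries, against 16.9, 22.6 and 20.4 FPKM in controls. All treated libraries exceeded all controls, at 0.37 ± 0.11 (SE, limma adjusted p = 0.28). Cdc7 itself had 12.1, 14.1 and 19.3 FPKM in blebbistatin libraries, against 8.65, 13.4 and 17.99 FPKM in controls. Within each group Cdc7 ran over a wide range, the groups overlapped, and the log2 fold change of 0.20 ± 0.25 turned to -0.06 without control 1. The Dbf4 to Cdc7 ratio gave an exact permutation p of 0.6. Ccne1, a cyclin E that drives Cdk2 at S-phase entry, had 22.2, 23.8 and 21.6 FPKM in blebbistatin libraries, against 20.5, 21.9 and 20.4 FPKM in controls. Blebbistatin 3 lay inside the control range for Ccne1, at 0.10 ± 0.08. Ccne2, its close relative, averaged 8.79 ± 1.65 FPKM with blebbistatin and 8.34 ± 1.90 FPKM in controls and differed by 0.08 ± 0.17.

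**Figure D3:**
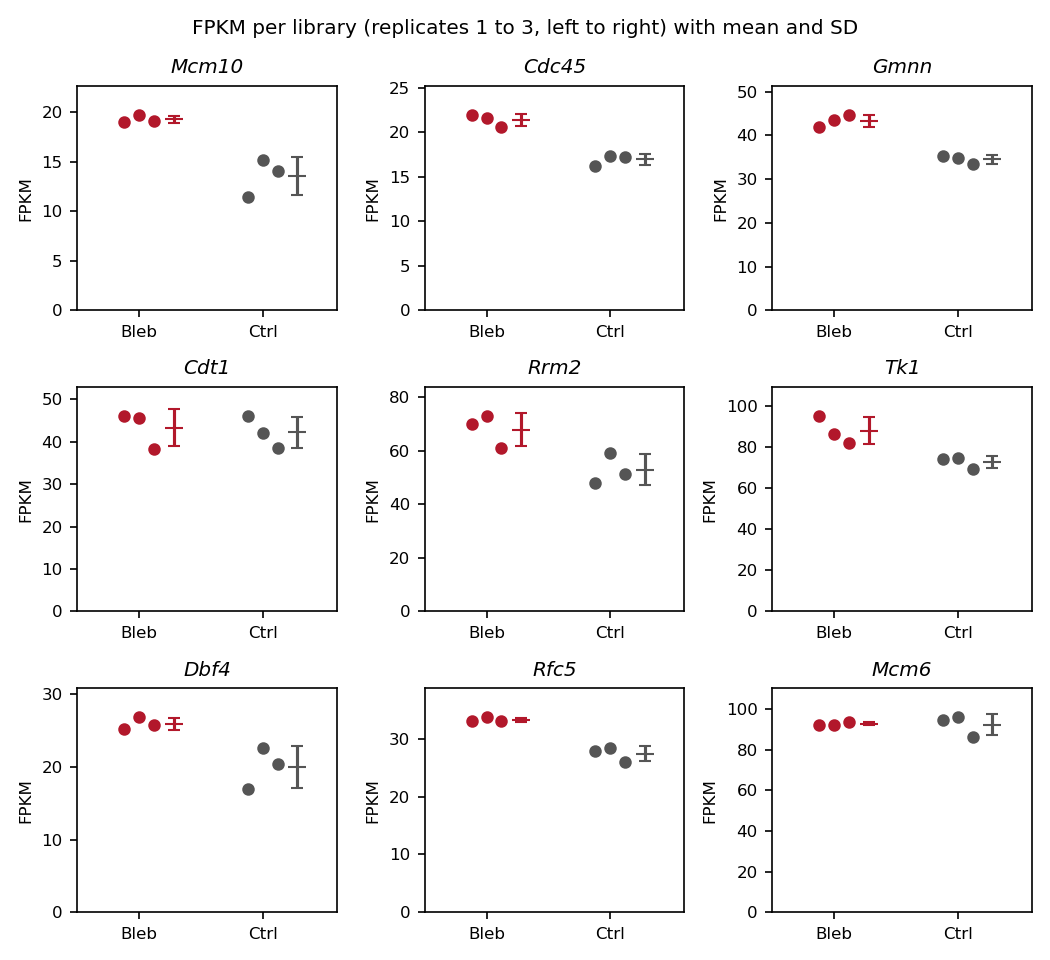
FPKM in each library (points, replicates 1 to 3 from left to right) with mean and SD beside them, blebbistatin in red on the left and control in grey on the right, for 9 genes on axes that start at 0. The points of Mcm10, Cdc45, Gmnn, Rrm2, Tk1, Dbf4 and Rfc5 are higher in every blebbistatin library than in any control, while those of Cdt1 and Mcm6 overlap.

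In the primase and polymerase group, the primase subunits differed most relative to their errors. All 8 genes had a higher mean, with a median log2 fold change of 0.18. An unadjusted p under 0.05 was found for 2, where 4.46% of all genes tested were higher at that p. Prim2, the large subunit of primase, had 18.4, 15.2 and 14.4 FPKM in blebbistatin libraries, against 12.9, 13.3 and 12.9 FPKM in controls. Blebbistatin 1 was well above the rest, all treated libraries exceeded all controls, and the log2 fold change was 0.27 ± 0.10 (limma adjusted p = 0.416). Prim1, the subunit that makes the RNA primer, had 26.3, 25.9 and 25.9 FPKM in blebbistatin libraries, against 21.6, 21.6 and 24.2 FPKM in controls. The 3 treated values nearly coincided above all controls, at 0.21 ± 0.08 (limma adjusted p = 0.468). Pola1, the catalytic subunit of DNA polymerase alpha, had 15.5, 13.8 and 13.7 FPKM in blebbistatin libraries, against 10.3, 14.2 and 11.95 FPKM in controls. Control 2 reached into the treated range and control 1 was the lowest, at 0.23 ± 0.12.

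The polymerase subunits differed less relative to their errors. Pola2, the accessory subunit of polymerase alpha, averaged 22.9 ± 1.33 FPKM with blebbistatin and 20.5 ± 0.195 FPKM in controls and differed by 0.15 ± 0.08 with no overlap. Pole, the catalytic subunit of polymerase epsilon, averaged 10.1 ± 0.908 FPKM with blebbistatin and 8.597 ± 2.04 FPKM in controls with control 1 the lowest library, and differed by 0.24 ± 0.16. Its accessory subunit Pole2 differed by 0.08 ± 0.08, also with no overlap. Pold1, the catalytic subunit of polymerase delta, differed by 0.10 ± 0.09 and its partner Pold2 by 0.04 ± 0.09, both with overlapping groups.

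At the sliding clamp and its loader, small differences came with small spreads. The 8 genes had a median log2 fold change of 0.20, and all 8 had a higher mean. An unadjusted p under 0.05 was found for 4, where 4.46% of all genes tested were higher at that p. Rfc5, a small subunit of the clamp loader, had 33.1, 33.7 and 33.0 FPKM in blebbistatin libraries, against 27.9, 28.4 and 25.9 FPKM in controls. Libraries within a group lay close together and the groups were apart, at 0.27 ± 0.08 (limma adjusted p = 0.264). Rfc3 and Rfc4 are further loader subunits. Rfc3 had 52.7, 54.3 and 51.4 FPKM in blebbistatin libraries, against 47.1, 44.0 and 45.8 FPKM in controls, at 0.21 ± 0.08 (limma adjusted p = 0.442). Rfc4 had 29.6, 28.6 and 29.2 FPKM in blebbistatin libraries, against 26.3, 24.9 and 24.5 FPKM in controls, at 0.20 ± 0.08 (limma adjusted p = 0.449). For both genes the lowest treated library lay above the highest control. Rfc2 differed by 0.11 ± 0.08 with no overlap, and the large subunit Rfc1 by 0.09 ± 0.09 with overlap.

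Pcna, the clamp that tethers the polymerases, was the most abundant of the 45 transcripts per length, at 209 ± 11.9 FPKM with blebbistatin and 181 ± 14.0 FPKM in controls (SD, n = 3 each). All treated libraries lay above all controls, at 0.21 ± 0.10 (limma adjusted p = 0.587). Fen1, the nuclease that trims the flaps of Okazaki fragments, had 44.1, 44.0 and 38.9 FPKM in blebbistatin libraries, against 33.3, 39.8 and 33.6 FPKM in controls. Blebbistatin 3 lay just under control 2, and the log2 fold change was 0.25 ± 0.10 (limma adjusted p = 0.497). Lig1, the ligase that seals them, averaged 55.9 ± 3.38 FPKM with blebbistatin and 48.7 ± 5.42 FPKM in controls and differed by 0.20 ± 0.10.

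The genes of nucleotide supply had a median log2 fold change of 0.27, which lay between 0.21 and 0.30 as each library was left out. All 5 genes had an unadjusted p under 0.05, where 4.46% of all genes tested were higher at that p. In 4 of the 5 all blebbistatin libraries lay above all controls, against a background of 7.48%. Rrm2, the small subunit of ribonucleotide reductase whose level limits the enzyme in S phase, lies at chr12:24708254-24714146 (mm10). It had 69.9, 72.9 and 60.9 FPKM in blebbistatin libraries, against 47.9, 59.3 and 51.4 FPKM in controls. Blebbistatin 3, the lowest treated library, still exceeded control 2, the highest control, and the log2 fold change was 0.36 ± 0.11 (SE, limma adjusted p = 0.295). Its partner Rrm1 had 64.0, 65.6 and 61.6 FPKM in blebbistatin libraries, against 46.5, 62.5 and 49.4 FPKM in controls. Blebbistatin 3 lay under control 2 for Rrm1, at 0.28 ± 0.12 (limma adjusted p = 0.519), and the Rrm2 to Rrm1 ratio gave an exact permutation p of 0.3.

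The remaining 3 genes serve thymidylate supply. Tk1, which salvages thymidine, had 95.2, 86.8 and 82.2 FPKM in blebbistatin libraries, against 74.2, 74.7 and 69.6 FPKM in controls, at 0.27 ± 0.09 (limma adjusted p = 0.35). Tyms, which makes thymidylate from deoxyuridylate, had 23.2, 22.2 and 21.8 FPKM in blebbistatin libraries, against 18.9, 19.7 and 18.6 FPKM in controls, at 0.22 ± 0.08 (limma adjusted p = 0.372). Dut, which removes dUTP and provides the substrate of Tyms, had 45.3, 51.1 and 48.3 FPKM in blebbistatin libraries, against 41.0, 43.0 and 40.2 FPKM in controls, at 0.21 ± 0.09 (limma adjusted p = 0.463). In each of these genes all treated libraries lay above all controls.

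Of the 3 genes that tie replication to transcription and chromatin, Slbp differed most relative to its error. Slbp, the protein that binds the stem-loop of histone mRNA, had 51.7, 55.9 and 54.0 FPKM in blebbistatin libraries, against 44.98, 49.0 and 46.1 FPKM in controls. Its groups were apart, at 0.20 ± 0.08 (limma adjusted p = 0.489). Uhrf1, which brings maintenance methylation to new DNA, had 102, 107 and 95.9 FPKM in blebbistatin libraries, against 88.7, 100.7 and 86.3 FPKM in controls. Control 2 lay inside the treated range, at 0.15 ± 0.10. E2f1, a transcription factor of the G1/S program, had 14.6, 16.2 and 15.6 FPKM in blebbistatin libraries, against 13.2, 14.7 and 14.8 FPKM in controls. Blebbistatin 1 lay inside the control range for E2f1, at 0.11 ± 0.09.

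**Figure D4:**
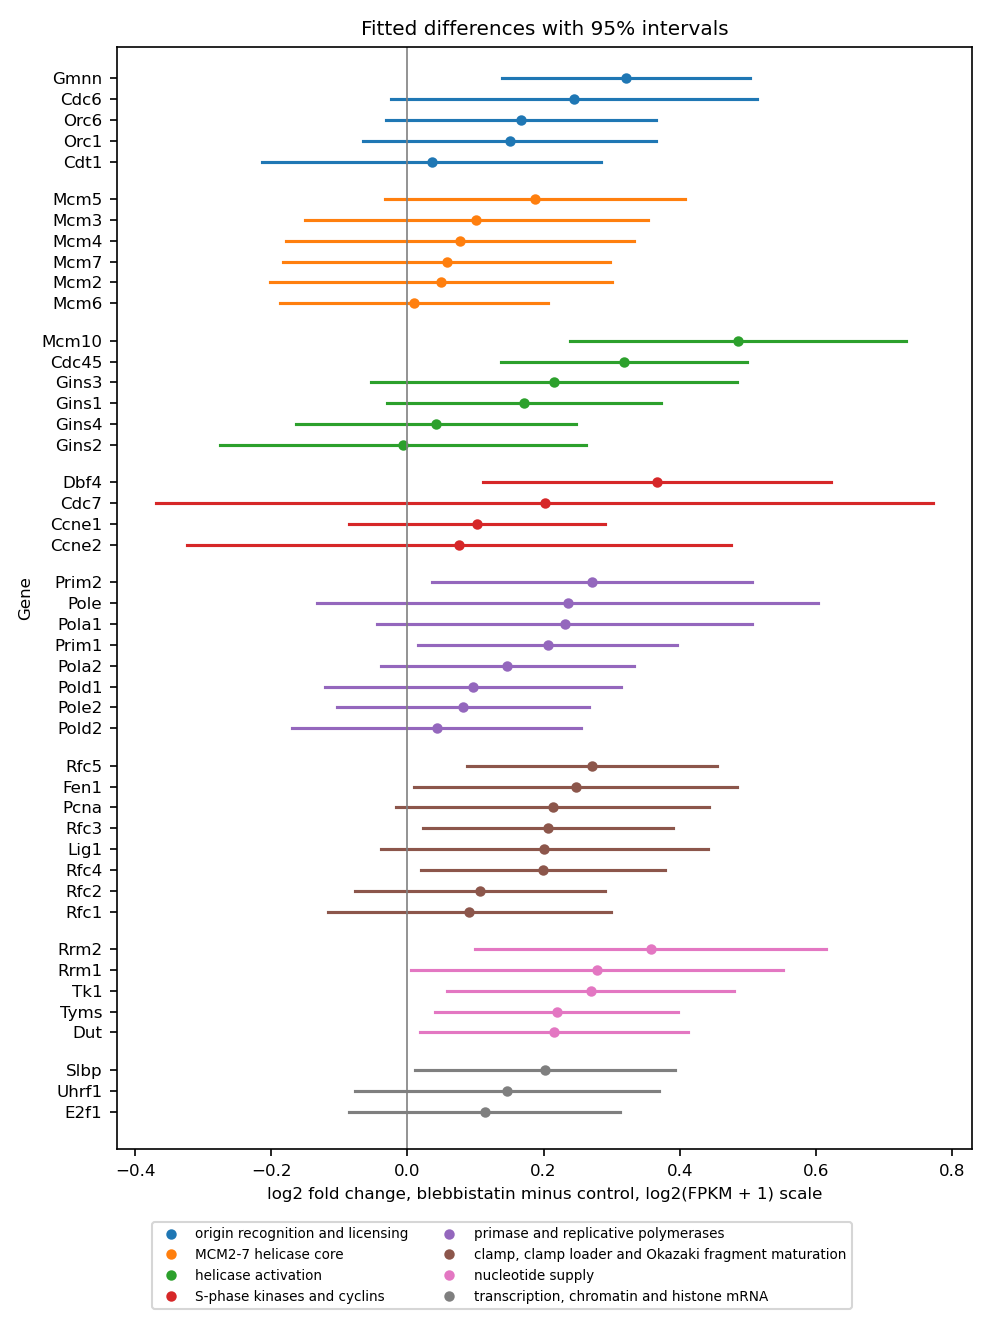
Fitted log2 fold change (point) with its 95% interval (line) for each of the 45 genes, blebbistatin minus control, grouped by role and coloured as in the legend. Points of 44 genes lie right of 0, from 0.01 for Mcm6, which turned below 0 under median-of-ratios rescaling and removal of the length trend, to 0.49 for Mcm10, and intervals are unadjusted for the number of genes.

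Transcript models were looked at as well. The 45 genes have 71 annotated transcripts, of which 62 were tested, and 57 of those had a higher mean with blebbistatin. The matching share over all transcripts was not computed, and these transcripts repeat the values of the same 45 genes. None passed an adjusted p of 0.05 in limma, against a background of 0.00692%, and 16 were higher at an unadjusted p under 0.05, against a background of 3.8%. Shares of a transcript within its gene could be tested for 28 transcripts of 11 genes. None had an unadjusted p under 0.05 in limma, against a background of 4.66%, and none passed the adjusted threshold, against a background of 0%. Exons of 6 genes overlap exons of a gene on the opposite strand, Ccne2 with Ints8, Gins2 with Gse1, Lig1 with 6330408A02Rik, Pold2 with Aebp1, Rfc4 with Eif4a2 and Tk1 with Afmid. The sources used here do not say whether libraries kept strand, so the values of these 6 are uncertain by an unknown share.

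Other genes of the pathway were taken from 4 further lists. As their background, 55.2% of all genes tested had a higher mean and 4.46% were higher at an unadjusted p under 0.05. Of 33 other fork and origin genes, 30 had a higher mean, 5 had an unadjusted p under 0.05, all of them higher, and the median log2 fold change was 0.14. Dscc1, part of an alternative clamp loader, differed by 0.23 ± 0.08 (limma adjusted p = 0.391). Clspn, a fork checkpoint mediator, differed by 0.36 ± 0.14. Lower means included Pold4, the smallest polymerase delta subunit, at -0.14 ± 0.18, and Chtf8, a partner of Dscc1, at -0.07 ± 0.11. All 8 chromatin assembly genes had a higher mean, with a median of 0.17 and 1 unadjusted p under 0.05. Asf1b, a histone chaperone, differed by 0.40 ± 0.09 (limma adjusted p = 0.138), and Chaf1a, a subunit of chromatin assembly factor 1, by 0.20 ± 0.09.

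Most genes of G1/S control stood higher with blebbistatin, and a few lower. Of 27 genes, 23 had a higher mean, 7 had an unadjusted p under 0.05, all higher, and the median log2 fold change was 0.11. Ccnd2, a D-type cyclin, had 258, 246 and 217 FPKM in blebbistatin libraries, against 166, 156 and 135 FPKM in controls, with no overlap, at 0.66 ± 0.12 (limma adjusted p = 0.0785). Mycn, a growth-promoting transcription factor, had 14.5, 11.9 and 9.08 FPKM in blebbistatin libraries, against 7.18, 6.599 and 4.77 FPKM in controls, at 0.83 ± 0.18 (limma adjusted p = 0.139). Its relative Myc differed by -0.33 ± 0.15 and the inhibitor Cdkn1c by -0.30 ± 0.15, both with lower means in treated glands. Other nucleotide synthesis genes lay near zero, with a median of 0.03 and 24 of 35 higher, beside 55.2% of all genes tested. An unadjusted p under 0.05 was found for 3, all higher, beside 4.46% of all genes tested. Prps2, which makes the ribose donor of purine synthesis, differed by 0.38 ± 0.11. Dhodh, of pyrimidine synthesis, differed by -0.16 ± 0.10, and Slc29a1, a nucleoside transporter, by -0.28 ± 0.19. No gene of these 4 lists passed an adjusted p of 0.05 in limma.

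Mitosis genes, set beside the replication genes in the same libraries, had larger differences. All 24 had a higher mean, beside 55.2% of all genes tested. At an unadjusted p under 0.05, 17 were higher, beside 4.46% of all genes tested. The median log2 fold change was 0.41, where the 45 replication genes had 0.20. Their average deviation was 0.25, 0.14 and 0.19 in blebbistatin libraries 1 to 3 and -0.48, 0.03 and -0.12 in controls 1 to 3. Control 1 was thus the lowest library in both lists, and farther below the others in the mitosis list. The difference between the lists was not tested, and both come from the same 6 libraries. Both lists were chosen with earlier results of these data known.

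**Figure D5:**
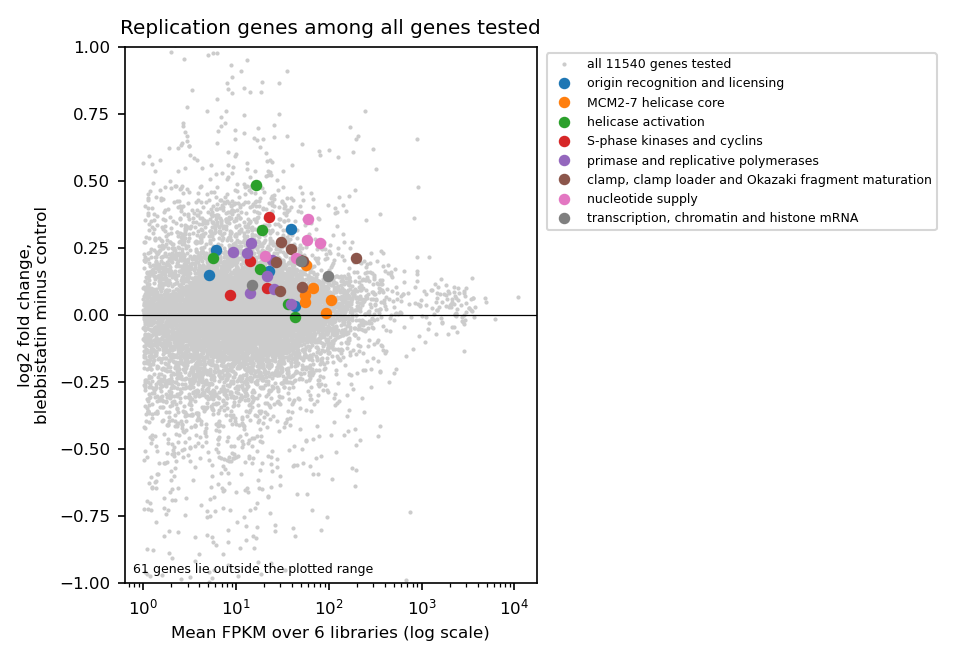
Log2 fold change, blebbistatin minus control, against the mean FPKM over 6 libraries on a log scale, for all 11540 genes tested (grey) and the 45 replication genes (coloured by role). The replication genes lie between 5.06 and 195 FPKM, nearly all above 0 and within the spread of the grey genes of like level, and 61 genes lie outside the plotted range.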

How the data were processed

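Libraries were made from total RNA with an Illumina TruSeq kit, per the labels' protocols. The submitters' processing notes name TopHat2 2.0.13, Bowtie2 2.2.3, Cufflinks 2.2.1 and mm10, with no settings. The authors deposited FPKM per gene and per transcript, which are scaled to library total and transcript length and are not counts. The sources used here do not say how reads shared with near-identical gene copies were split. Columns marked BB were read as blebbistatin and those with no number as replicate 1.

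From these values, log2(FPKM + 1) was fitted with limma 3.58.1 (trend) in R 4.3.3 over the 11540 genes with a mean of at least 1 FPKM, blebbistatin minus control, with Benjamini-Hochberg adjustment over all of them. Transcripts were fitted likewise, and shares as their arcsine square root. Figures and motif searches used Python 3.11.15. The script was checked on simulated data. Genes and lists were chosen with earlier results of these data known. Values in every library are given for genes with an unadjusted p under 0.05 and for the 3 of smallest p per role, and Cdt1, Mcm6, Gins2 and Gins3 were added after values were seen. Of the other pathway lists, up to 2 higher and 2 lower genes of smallest p are named. A gene that this rule names is not reported here. Alternatives covered the pseudocount, the filter, normalization, weights, the block and leaving out each library.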

Additional observations from a re-analysis of the deposited data

How the results depend on the processing

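No gene of the 45 passed the adjusted threshold under any alternative run, nor did any of their transcripts or transcript shares. Leaving out each library in turn gave 7 to 16 genes with an unadjusted p under 0.05 that were higher, beside 3.10% to 6.05% of all genes tested. It gave 22 to 33 genes without overlap that were higher, where the share of all genes also grew with fewer libraries, to 17.2% without control 2 (the 33 genes) and 17.2% without control 1 (23 genes), beside 7.48% with all libraries. It gave 0 to 1 without overlap that were lower (1 without control 3, beside 11.2% of all genes), and a median log2 fold change of 0.14 (without control 1) to 0.21. Array weights and the replicate block each gave 21 higher genes at that unadjusted p, beside 6.16% and 8.02% of all genes, where the fit without them had 4.46%. Signs turned for 7 genes whose differences were small or rested on 1 library, and the cause was not tested. Over the fits without each library, Mcm6 ran between -0.038 and 0.037, Mcm2 between -0.040 and 0.11, Mcm7 between -0.0083 and 0.12, Cdt1 between -0.025 and 0.12, Gins2 between -0.087 and 0.10, Cdc7 between -0.058 and 0.43 and Ccne2 between -0.092 and 0.21. Mcm6 was also -0.0081 under median-of-ratios rescaling and -0.0020 after removal of the length trend, and Gins2 was 0.049 with array weights. The labels do not state that replicate numbers pair the libraries. Same-numbered libraries correlated in their deviations at 0.18, 0.094 and 0.25, and each library correlated best with its own number, a hint from the data and not from the design. The replicate block moved the genes past the adjusted threshold over the whole table to 144, where the fit without it had 9, and left 0 of the 45. With 3 libraries a group, the standard errors of about 0.08 to 0.25 on the log2 scale limit what could be called.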
